A study of Homo sapiens with 2 samples.

Results

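The AP-1 proteins JUN, JUNB, JUND, FOS, FOSB, FOSL1 and FOSL2, their relative ATF3, and the early response factors EGR1 and NR4A1 were followed in C33-A cells with and without an introduced CA9 cDNA. All probe sets that the platform annotation pairs with exactly 1 of these symbols were taken, which gave 26 probe sets for 10 genes, of 54675 probe sets on the array and 19775 genes with a probe set of their own. C33-A is an established epithelial line from a human cervical carcinoma. The CA9 cells are a stable C33-A derivative that carries full-length human CA9 cDNA in the plasmid pcDNA3.0, and the vector cells are a stable derivative that carries the empty plasmid. CA9 encodes carbonic anhydrase IX, a cell-surface enzyme of tumour acid-base control. Both lines grew in RPMI with 10% fetal bovine serum, no stimulus is named, and the RNA of day 4 after seeding was hybridised to 1 Affymetrix array per line. Whether either line is a clone or a pool is not given in the labels.

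AP-1 is a dimer of basic leucine zipper proteins. JUN proteins pair with each other or with FOS proteins, FOS proteins need a JUN partner, and the dimer binds DNA at TGANTCA. JUN, FOS, FOSB, ATF3, EGR1 and NR4A1 are transcribed within minutes of serum, growth factors or stress, without new protein synthesis, and their mRNAs are mostly short-lived. In epithelial cells AP-1 takes part in proliferation, differentiation and invasion. EGR1 is a zinc finger protein, and NR4A1 is an orphan nuclear receptor.

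The start regions of early response genes can carry elements through which such signals act. The 250 bases before the RefSeq start site (GRCh38.p14) are shown for JUN and ATF3, whose brightest probe sets were the lowest relative to vector cells, for FOS, the partner that defines classical AP-1, and for EGR1, whose probe sets disagreed. They lie at chr1:58784048-58784297 on the minus strand (JUN), and on the plus strand at chr1:212565157-212565406 (ATF3, the first of its listed starts), chr14:75278578-75278827 (FOS) and chr5:138465229-138465478 (EGR1). Capitals mark every match on either strand to the AP-1 site TGANTCA, the JUN-ATF2 site TGACNTCA, the shorter core TGACG, the EGR site GCGNGGGCG and the CArG box, the site of serum response factor (SRF). TGACNTCA includes the full cyclic AMP response element TGACGTCA, which itself holds TGACG on both strands.
JUN: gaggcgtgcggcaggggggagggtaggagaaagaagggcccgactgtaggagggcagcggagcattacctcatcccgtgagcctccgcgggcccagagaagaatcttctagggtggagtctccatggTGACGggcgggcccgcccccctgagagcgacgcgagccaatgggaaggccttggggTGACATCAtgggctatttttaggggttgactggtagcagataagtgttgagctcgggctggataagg
ATF3: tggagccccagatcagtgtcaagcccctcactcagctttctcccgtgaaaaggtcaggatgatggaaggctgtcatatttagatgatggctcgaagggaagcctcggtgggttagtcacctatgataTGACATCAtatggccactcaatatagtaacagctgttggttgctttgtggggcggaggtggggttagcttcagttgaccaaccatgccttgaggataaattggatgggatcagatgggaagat
FOS: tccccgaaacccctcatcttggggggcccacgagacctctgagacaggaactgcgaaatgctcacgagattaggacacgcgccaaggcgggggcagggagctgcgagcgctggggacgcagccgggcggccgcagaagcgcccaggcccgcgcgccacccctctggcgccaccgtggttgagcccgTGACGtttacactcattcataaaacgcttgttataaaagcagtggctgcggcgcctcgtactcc
EGR1: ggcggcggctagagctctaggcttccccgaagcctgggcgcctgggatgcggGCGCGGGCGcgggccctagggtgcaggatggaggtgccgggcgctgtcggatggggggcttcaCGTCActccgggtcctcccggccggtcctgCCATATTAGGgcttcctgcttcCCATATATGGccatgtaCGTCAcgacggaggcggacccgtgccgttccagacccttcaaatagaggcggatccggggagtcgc

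The JUN and ATF3 stretches each held TGACATCA, 60 to 67 bases before the start of JUN and 116 to 123 bases before that of ATF3. EGR1 had 2 CArG boxes, 96 to 105 and 74 to 83 bases before its start. FOS had the shorter core TGACG, 60 to 64 bases before its start. Over all 35116 promoter windows of this length in the RefSeq table, 6.57% held TGANTCA, 6.87% TGACNTCA, 1.65% TGACGTCA, 21.2% TGACG, 8.41% GCGNGGGCG and 1.16% a CArG box. Windows were found for 9 of the 10 genes, 11 in all with both starts of ATF3 and NR4A1. The JUND window had TGACGTCA at 193 to 200 bases, and those of JUNB and FOSB each had 1 TGACG and that of FOSL2 had 2. No member window held TGANTCA. Neither NR4A1 window matched any of these letters, nor did the window of the second ATF3 start. A match describes the letters only. Elements outside these 250 bases were not searched for, so a site absent here can lie farther from the start.

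The question was whether these factors differ in mRNA level between CA9 cells and vector cells. Each gene was represented by its brightest probe set. Differences are log2 values, CA9 minus vector, and 1.5-fold was the size that counted. The floor is the median intensity of all probe sets other than controls, 40.8. All 10 genes lay above it on both arrays. There was no replicate of either line, so no test is given and a difference cannot be set against the spread between cultures. The pooled SD of the log2 differences between probe sets of 1 gene, 0.29 (5428 genes), is given as a scale only. It rests on probe sets above the floor on both arrays and can include differences between transcripts of a gene. It does not measure the spread between cultures.

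At their brightest probe sets JUN, ATF3 and FOSL2 were at least 1.5-fold lower in CA9 cells, and none of the 10 genes was 1.5-fold higher. Among 13823 genes above the floor, 4.74% were as much lower and 5.29% as much higher. Among the 7396 genes with a mean intensity between that of the dimmest member and that of JUN, 5.92% were as much lower and 6.41% as much higher. No member was 2-fold apart, against 0.694% of all genes that were 2-fold lower and 0.651% that were 2-fold higher. The median log2 difference of the members was -0.27, with 9 of 10 below 0, and that of all genes was -0.03, with 53% below 0. In bulk RNA, fewer expressing cells and less RNA per cell cannot be told apart.

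Each of these 3 genes passed 1.5-fold at 1 probe set only. Every one of the 6 members with several probe sets had some above 0 and some below, as did 55.8% of the 8646 genes with several. That share was not matched for the number of probe sets. Over all 26 probe sets 12 differences were below 0 and 14 above, with a median of 0.05. Of the 23 with an array above the floor, 3 were at least 1.5-fold lower and 3 at least 1.5-fold higher, where the background was 5.69% and 5.81% of 24174 probe sets. With all probe sets of a gene averaged, dim ones included, no member was 1.5-fold lower and JUND was 1.5-fold higher, where the background was 2.75% lower and 3.81% higher.

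**Figure D1:**
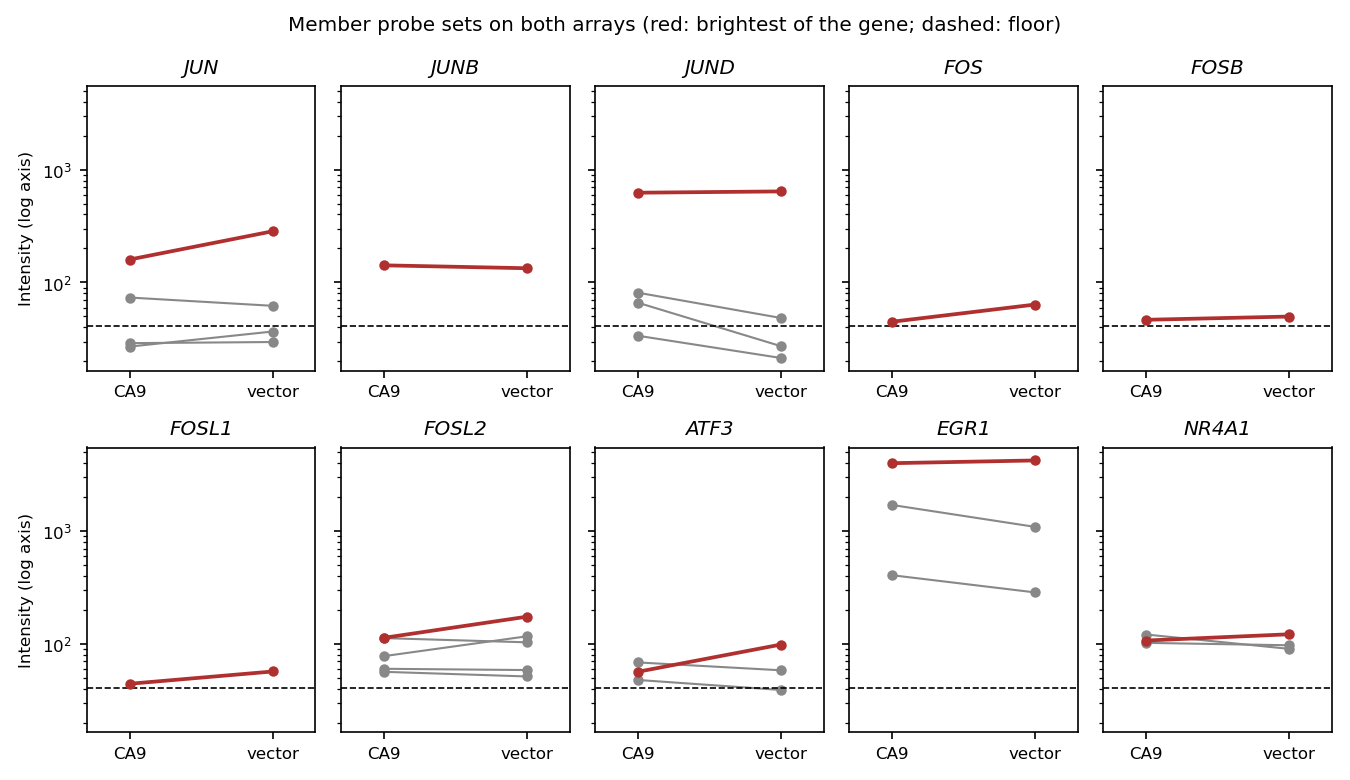
Intensity (log axis) of each member probe set in CA9 cells and vector cells, 1 panel per gene and 1 line per probe set; the brightest is red and the dashed line is the floor of 40.8. JUN, FOSL2 and ATF3 have red lines that lie lower in CA9 cells, while at least 1 grey line of each of these genes runs the other way.

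JUN encodes c-Jun, the AP-1 subunit with the strongest activating region of its family. Its brightest probe set (201464_x_at) had an intensity of 160 in CA9 cells and 284 in vector cells, which was 1.78-fold lower. The second probe set above the floor (201465_s_at) had 73.6 in CA9 cells and 62.1 in vector cells, a log2 difference of 0.24. These probe sets place the lines in opposite order. The remaining pair lay below the floor on both arrays, with log2 differences of -0.44 (201466_s_at) and -0.03 (213281_at), and the mean over all 4 was -0.27. A probe set named _x_at holds probes that can also bind other transcripts, and one named _s_at is shared between transcripts.

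JUNB, which opposes JUN at some targets, had 1 probe set (201473_at) with an intensity of 142 in CA9 cells and 134 in vector cells. That log2 difference, 0.09, was the only positive value among the brightest probe sets. It was smaller than the SD between probe sets.

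JUND, the family member with steady expression in resting cells, had an intensity of 624 in CA9 cells and 640 in vector cells at its brightest probe set (203752_s_at). The log2 difference of -0.04 turned to 0.05 after quantile normalization and 0.06 after loess. Its dimmer probe sets were all higher in CA9 cells. The brightest of these (203751_x_at) had 81.2 in CA9 cells and 48.5 in vector cells, 1.67-fold higher. Another (214326_x_at) had 66.2 in CA9 cells and 27.3 in vector cells, which lies below the floor, so it was at least 1.62-fold higher. The last (229117_s_at) was below the floor on both arrays, at 33.8 in CA9 cells and 21.5 in vector cells. The range of the 4 log2 differences, 1.32, was matched or exceeded by 3.25% of the 1230 genes with 4 probe sets, and the range in JUN, 1.07, by 7.64%.

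In the FOS family 1 of 4 members, FOSL2, was 1.5-fold lower in CA9 cells, at its brightest probe set. The log2 differences of all 4 gene values were below 0, as were those of 53% of all genes, with a median of -0.43 at the brightest probe sets and -0.27 with probe sets averaged. Of the 8 probe sets of the family 5 were below 0, and the 3 above 0 all belong to FOSL2. FOS, FOSB and FOSL1 each have 1 probe set, close to the floor, so the choice of probe set could not move them.

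FOS, the partner of JUN in the classical dimer, had an intensity of 44.9 in CA9 cells and 63.8 in vector cells (209189_at). It was 1.42-fold lower, short of 1.5-fold. With array medians set equal its log2 difference was -0.57, and it stayed short of 1.5-fold under each setting run. Its level in CA9 cells was just above the floor of 40.8.

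FOSB had 46.7 in CA9 cells and 49.9 in vector cells (202768_at), a log2 difference of -0.10, within the SD between probe sets. FOSL1, which encodes FRA-1, a late member of the family linked to invasion, had 44.4 in CA9 cells and 57.1 in vector cells (204420_at), 1.28-fold lower. Both genes were near the floor in both lines, so little can be read from their size.

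FOSL2, which encodes FRA-2, had the most probe sets, 5, and all lay above the floor on both arrays. The brightest (225262_at) had an intensity of 113 in CA9 cells and 174 in vector cells, 1.54-fold lower, and the next lower one (228188_at) had 78.0 in CA9 cells and 117 in vector cells, a log2 difference of -0.58 that was just short of 1.5-fold. The other three were level. Their log2 differences were 0.12 (205409_at), 0.04 (218880_at) and 0.14 (218881_s_at), and the mean over all 5 was -0.18. A range as wide as in FOSL2, 0.76, occurred in 37.2% of 651 genes with 5 probe sets.

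**Figure D2:**
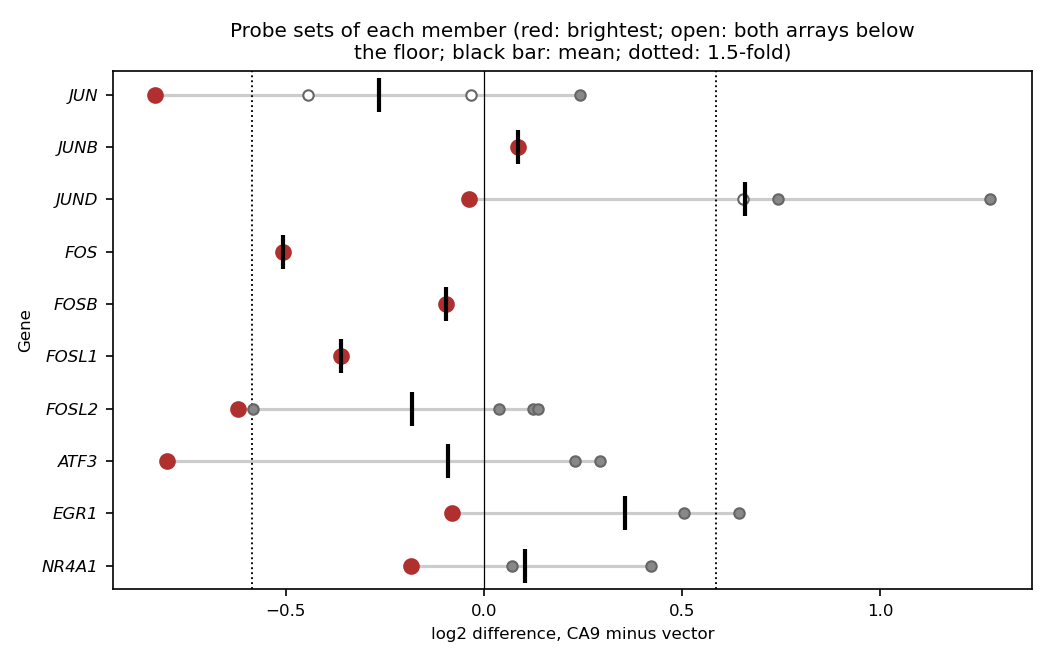
The log2 difference, CA9 minus vector, of each member probe set, with genes down the page; red is the brightest probe set, open points lie below the floor on both arrays, black bars are means and dotted lines mark 1.5-fold. The brightest probe set is the lowest value of the gene in all 6 genes that have several, from -0.83 in JUN to -0.04 in JUND.

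ATF3 encodes a zipper protein of the stress response that pairs with JUN proteins and mostly represses. Its brightest probe set (202672_s_at) had an intensity of 56.7 in CA9 cells and 98.8 in vector cells, 1.74-fold lower. The other two probe sets were in the opposite order. 1554980_a_at had 68.7 in CA9 cells and 58.5 in vector cells, a log2 difference of 0.23, and 1554420_at had 48.0 in CA9 cells and 39.2 in vector cells, which against the floor is at least 1.18-fold higher. The mean over the 3 was -0.09. Of 2352 genes with 3 probe sets, 4.04% had a range at least as wide as the 1.09 of ATF3.

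EGR1, the early zinc finger factor with CArG boxes before its start, was far above the floor in both lines at every probe set. The brightest (227404_s_at) had an intensity of 3991 in CA9 cells and 4220 in vector cells, a log2 difference of -0.08. The second (201694_s_at) had 1703 in CA9 cells and 1089 in vector cells, 1.56-fold higher, and the third (201693_s_at) had 407 in CA9 cells and 286 in vector cells, a log2 difference of 0.51. So 2 of 3 probe sets were higher in CA9 cells and the brightest was level. The mean was 0.36, and 20.1% of genes with 3 probe sets had a range as wide as 0.73.

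NR4A1, the early response nuclear receptor, had an intensity of 107 in CA9 cells and 122 in vector cells at its brightest probe set (202340_x_at). Its other probe sets had 121 in CA9 cells and 90.5 in vector cells (210226_at), and 102 in CA9 cells and 97.4 in vector cells (211143_x_at). The log2 differences were -0.18, 0.42 and 0.07 in that order, with a mean of 0.10. None reached 1.5-fold.

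**Figure D3:**
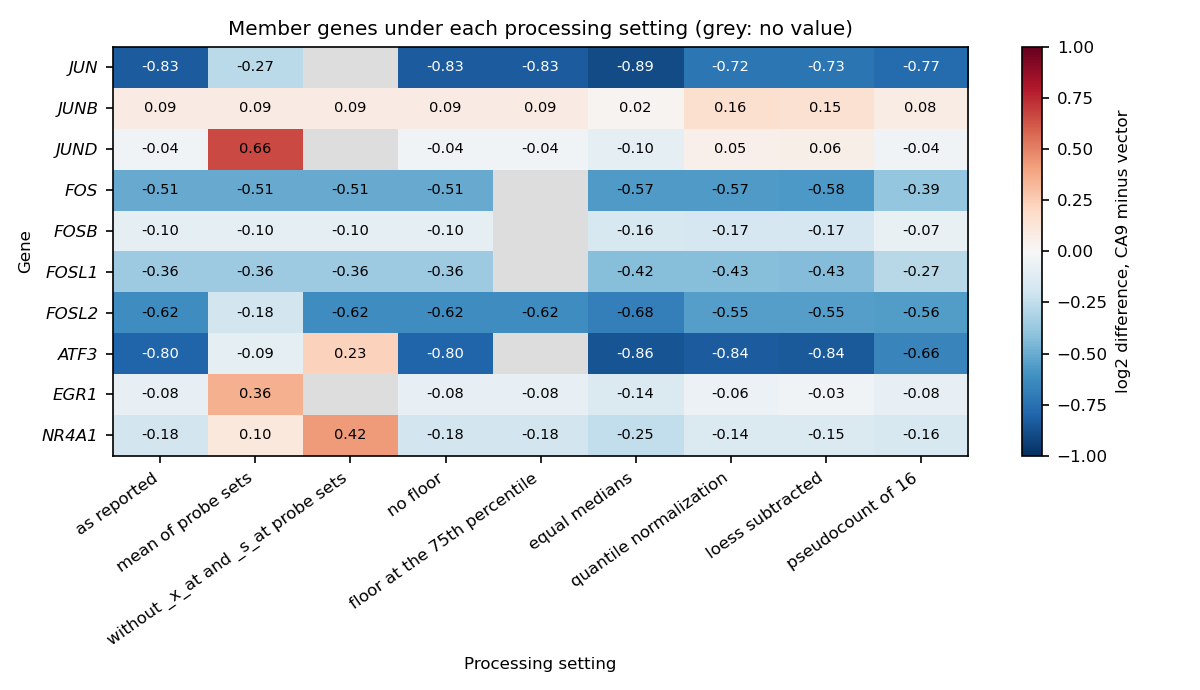
Log2 difference, CA9 minus vector, of each member gene (rows) under the reported processing and 8 alternatives (columns), with grey where a gene had no value. JUND, ATF3, EGR1 and NR4A1, with 3 or 4 probe sets each, change sign with the probe set, ATF3 to 0.23 and JUND to 0.66; JUNB, FOS, FOSB and FOSL1 have 1 probe set, so that choice cannot move them.

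Genes around these factors were described by 8 lists, which overlap in ATF4 and DDIT3. The background for each list count is that of all genes above the floor. Of these 4.74% were 1.5-fold lower, 5.29% were 1.5-fold higher and 53% were below 0. The bZIP partners of AP-1 had a median log2 difference of -0.08 over 12 genes above the floor, none 1.5-fold lower and 1 higher. That was BATF2, at 45.3 in CA9 cells and 24.6 in vector cells, which is below the floor, so at least 1.11-fold higher. ATF2, a partner of JUN at TGACNTCA, was the lowest at -0.46, with 3 of 3 probe sets below 0. ATF4 and DDIT3, zipper proteins of the stress response, were at 0.02 and -0.09.

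Of the EGR and NR4A relatives and the NAB corepressors 4 genes lay above the floor, with a median of -0.20, which turned to 0.02 with probe sets averaged and 0.17 with the floor at the 75th percentile. NAB1, which binds EGR proteins and represses them, was 1.54-fold lower, at 212 in CA9 cells and 326 in vector cells, with 3 of 4 probe sets below 0. NR4A3, a paralogue of NR4A1, had a log2 difference of -0.57, with 2 of 3 below 0. EGR3 and NR4A2 were below the floor in both lines.

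Of 27 other early response genes, none was 1.5-fold lower and 2 were 1.5-fold higher, and the median was 0.05. KLF4, a Krüppel-like factor, had 58.1 in CA9 cells and 32.0 in vector cells, which the floor bounds at 1.42-fold or more, and its second probe set was at -0.06. ARC, an activity-regulated gene of neurons, was at least 1.45-fold higher, at 59.2 in CA9 cells and 33.7 in vector cells. BATF2, KLF4 and ARC count as 1.5-fold higher by their measured values, while their bounds against the floor are smaller.

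**Figure D4:**
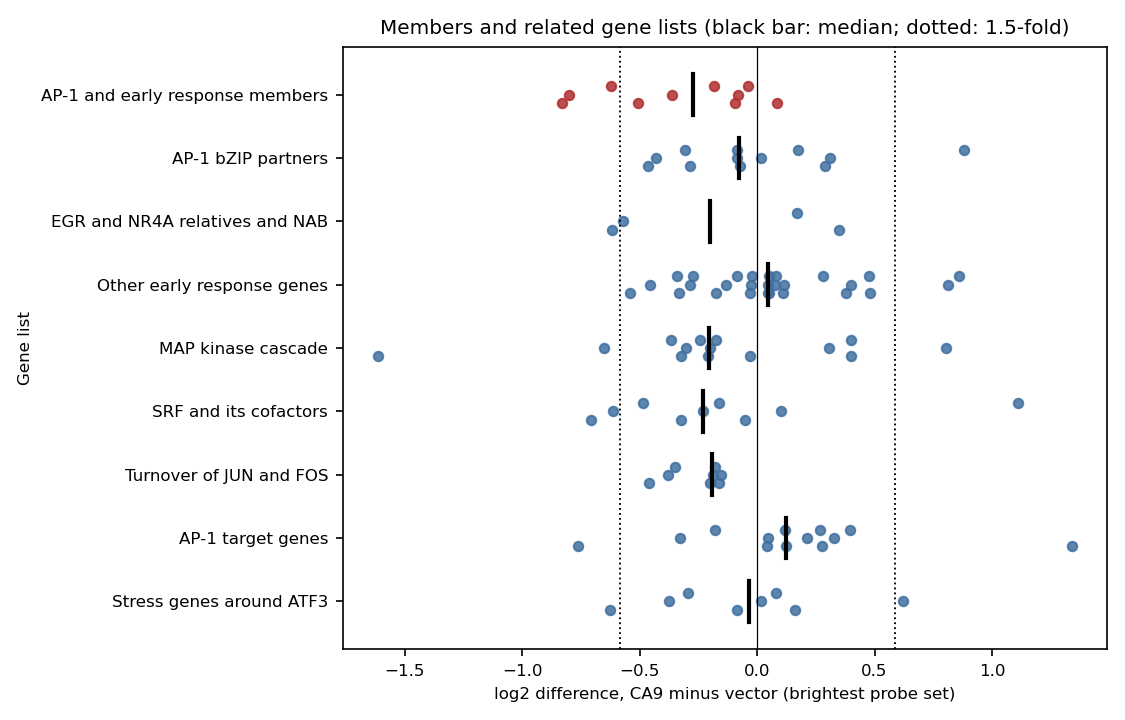
Log2 difference, CA9 minus vector, at the brightest probe set of each gene above the floor, for the members (red) and the 8 related lists (blue); black bars are medians and dotted lines mark 1.5-fold. The member median is -0.27, the list medians run from -0.23 for SRF and its cofactors to 0.13 for AP-1 target genes, and MAP3K1 at -1.61 is the farthest point.

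Upstream of the factors, 14 genes of the MAP kinase cascade, which phosphorylates JUN and the SRF cofactors, had a median of -0.21, with 2 genes 1.5-fold lower and 1 higher. With probe sets averaged the median was -0.06 over the same genes, and -0.17 over those whose average passed the floor. MAP3K1, a kinase that acts upstream of JNK, was 3.06-fold lower, at 66.3 in CA9 cells and 203 in vector cells, while its second probe set was at -0.09. MAP3K5, a stress-activated kinase of the same tier, had 34.4 in CA9 cells, below the floor, and 54.1 in vector cells, and was at least 1.32-fold lower, so it counts as 1.5-fold lower by its measured values only. MAP2K2, which activates ERK, was 1.74-fold higher, at 897 in CA9 cells and 514 in vector cells, and all 3 of its probe sets were above 0, from 0.51 to 0.93.

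SRF and its cofactors, which act through CArG boxes, were listed with the activator CREB1 and the coactivators CREBBP and EP300. They had a median of -0.23 over 9 genes at the brightest probe sets and 0.10 over the same genes with probe sets averaged, so the sign depended on the probe set. ELK4 and ELK3, ternary complex factors, were the lower genes. ELK4 was 1.63-fold lower, at 111 in CA9 cells and 180.3 in vector cells, with 5 of 7 probe sets below 0. ELK3 was 1.53-fold lower, at 201 in CA9 cells and 307 in vector cells, with 2 of 2 below 0. MRTFA, an actin-regulated SRF cofactor, was 2.16-fold higher, at 223 in CA9 cells and 103 in vector cells, in a probe set named _x_at, with 4 of 5 probe sets above 0 and a mean of 0.50.

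All 8 genes for turnover of JUN and FOS above the floor were below 0 at the brightest probe set, as were 53% of all genes. Their median was -0.19, or -0.21 with probe sets averaged, and none was 1.5-fold apart. RNF187, at -0.20, had only 1 of 5 probe sets below 0 and a mean of 0.21. SENP1, a SUMO protease, was at -0.46 and CUL4A, a ubiquitin ligase scaffold, at -0.38, but only 1 of 2 and 2 of 4 of their probe sets were below 0.

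Of 24 listed AP-1 target genes, 13 lay above the floor, with a median of 0.13. Of these, 10 of 13 were above 0, where 53% of all genes were below 0. In each direction 1 gene passed 1.5-fold, where the background was 4.74% lower and 5.29% higher. MMP1, MMP3, MMP10 and MMP13, matrix metalloproteinases with AP-1 sites in their promoters, were below the floor in both lines, as were IL6 and CXCL8. MMP9, the other metalloproteinase of the list, lay above it in both lines. It had 101 in CA9 cells and 83.9 in vector cells, a log2 difference of 0.27. VIM, vimentin, was 2.53-fold higher, at 2867 in CA9 cells and 1131 in vector cells, with its second probe set at 0.21. HMOX1, haem oxygenase, was 1.69-fold lower, at 216 in CA9 cells and 366 in vector cells.

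Of 8 stress genes around ATF3, DDIT4, an inhibitor of mTORC1, was 1.54-fold lower, at 71.8 in CA9 cells and 111 in vector cells. PPP1R15A, a phosphatase subunit that restores translation after stress, was 1.54-fold higher, at 262 in CA9 cells and 170 in vector cells, with 2 of 2 probe sets above 0. No other gene of the list reached 1.5-fold, and its median was -0.03.

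Of the epithelial markers, KRT7, KRT8, KRT18 and KRT19 lay above the floor, with log2 differences from 0.16 to 0.57, and EPCAM and CDH1 lay below it in both lines. The summed intensity of the epithelial list was 464 in CA9 cells and 370 in vector cells, that of fibroblast markers (3 of 5 above the floor) 359 in CA9 cells and 354 in vector cells, that of endothelial markers (2 of 4) 181 in CA9 cells and 152 in vector cells, and that of blood markers (3 of 4) 166 in CA9 cells and 172 in vector cells. Among the blood markers PTPRC had 30.1 in CA9 cells and 58.1 in vector cells, a log2 difference of -0.95. CD14 had 57.1 in CA9 cells and 36.9 in vector cells, a log2 difference of 0.63. In each of these genes the lower array was below the floor of 40.8, so the size of the difference is uncertain. The 3 probe sets for 18S ribosomal RNA had log2 differences from -2.15 to -0.92, hybridisation spike-ins a median of 0.41 with 17 of 18 above 0, and poly-A spike-ins a median of -0.20 with 3 of 24 above 0. Their part in the member values was not tested. No probe set is paired with CA9 in the annotation used, so the level of the transgene, which would check the labels, was not analysed here.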

How the data were processed

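Total RNA of 1 culture per line was labelled with biotin from 5 µg and hybridised, per the labels' protocols. The deposited values are 1 intensity per probe set, summarised by the authors with RMA, per the submitters' processing notes; the version and probe definitions are not given in the sources used here. They lie on a linear scale, read from the values, and log2 was taken here without a pseudocount. Of 42898 annotated probe sets, 41097 have 1 symbol, and 41043 of these matched RefSeq gene identifiers (GRCh38.p14), which updated the symbols. A gene was represented by its brightest probe set and used if its higher array exceeded the floor. A fold whose lower array was below the floor is a bound, taken from the floor. With 1 array per line no p-value or SE exists. The number of arrays limits the precision.

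All members were named, and in each list up to 5 genes at least 1.5-fold apart, or the 2 farthest from 0. ATF4, DDIT3, EGR3, NR4A2, RNF187, MMP9, PLAU, IVL, PTPRC, CD14 and the target genes below the floor were named outside that rule, after their values were seen. The members and lists were chosen with earlier results of these data known. List genes without a probe set of their own were not analysed here. Alternatives were averaged probe sets, no _x_at or _s_at probe sets, no floor or one at the 75th percentile, equal medians, quantile normalization, loess, a pseudocount of 16 and 2-fold. Scripts ran in Python 3.11.15 with matplotlib 3.10.9, pandas 2.3.3, numpy 2.4.6 and statsmodels 0.14.6, and were tested on simulated data.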

Additional observations from a re-analysis of the deposited data

How the results depend on the processing

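The median log2 difference of the members was below 0 under all 8 alternatives that gave one, from -0.33 with equal medians to -0.09 with averaged probe sets. The median of all genes moved too. It was -0.095 with equal medians and -0.02 with averaged probe sets. With the floor at the 75th percentile it was -0.10, close to the -0.13 of the 6 members left. The number of members at least 1.5-fold lower was 3 as reported. It was 0 with averaged probe sets, 1 without probe sets named _x_at or _s_at (FOSL2, with 7 members left) and 0 at 2-fold. The share of all genes as much lower was 4.74% as reported, 2.75%, 5.81% and 0.694% in that order. The count stayed at 3 with equal medians and with no floor, where 6.92% and 3.59% of all genes were as much lower. FOSL2 fell short after quantile normalization, loess and a pseudocount of 16, which left JUN and ATF3, and ATF3 was below the floor at the 75th percentile, which left JUN and FOSL2. Of all genes 4.22% were as much lower after quantile normalization and after loess. With the pseudocount it was 3.18%, and with that floor 5.46%. The number at least 1.5-fold higher was 0 as reported and 1 with averaged probe sets (JUND, at 0.66). Of all genes 5.29% were as much higher as reported and 3.81% with averaged probe sets. ATF3 turned to 0.23 without _x_at and _s_at probe sets, since its next probe set has the opposite sign. Of 73 member values under alternatives, 66 moved by less than the SD between probe sets. Of 64 list medians 62 did so; the exceptions were SRF and its cofactors at 0.13 with averaged probe sets, and the EGR and NR4A relatives at 0.17 with the floor at the 75th percentile. FOS, FOSB, FOSL1 and ATF3 lie close to the floor, where signal over background limits what can be read. No paired analysis was possible because each line has 1 array.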

Other observations

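Several genes of the lists had probe sets that lay on 1 side of 0 throughout. They were chosen after their values were seen, and no test is given. Of the 8646 genes with several probe sets, 55.8% had some on both sides of 0. That share pools all genes with more than 1 probe set and was not matched to genes with 4 or 5. The probe sets counted here were not limited to those above the floor. ZFP36L1 and ZFP36L2, RNA-binding proteins that speed the decay of AU-rich mRNAs such as those of early response genes, had all 4 probe sets above 0 in CA9 cells. Their brightest probe sets were level, at log2 differences of 0.05 and 0.05, but others reached 1.62 in ZFP36L1 and 1.36 in ZFP36L2, and the means were 0.51 and 0.69. RHOB, an early response GTPase, had 5 of 5 probe sets above 0, from 0.14 to 0.38.

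On the other side, MAPK8, which encodes the JUN kinase JNK1, had 5 of 5 probe sets below 0, from -0.85 to -0.22, with a mean of -0.46. GSK3B, a kinase that marks JUN for degradation, had 5 of 5 below 0, from -0.70 to -0.05. EZR, ezrin, had 5 of 5 below 0, from -0.50 to -0.13. In the members with several probe sets the brightest gave the lowest difference in 6 of 6 genes, as it did in 40.2% of all genes with several. This share too was not matched for the number of probe sets.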
